A study of Danio rerio with 24 samples.

Results

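The gene set described here holds the genes that build and process the larval skeleton of zebrafish (Danio rerio): regulators of cartilage and bone cells, proteins of the cartilage and bone matrix, and enzymes and chaperones that modify collagen. Collagen chains themselves are not among them. The members are 35 zebrafish gene symbols taken by name and role, and the list was drawn up with earlier results of these data known. Of these, 34 were found by their NCBI Gene number among the 39974 genes measured, and panx3 was not matched. After a filter on low values, 33 were tested for differences between groups; runx2a fell below the filter.

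Cartilage cells secrete a matrix of fibrillar collagen filled with the large proteoglycan aggrecan, which is held on hyaluronan by link proteins. Osteoblasts lay down a collagen matrix that then mineralizes through enzymes that release phosphate or remove inhibitors of mineral growth. In both tissues, new collagen chains are hydroxylated, folded and escorted through the endoplasmic reticulum by a dedicated group of enzymes and chaperones, and in people mutations in several of those genes cause brittle bone disease.

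RNA came from whole wild-type larvae of the AB strain at 5 days after fertilization. The exposed larvae had been in the test solutions since 4 hours after fertilization, with all solutions made up in Danieau's medium. The 6 groups were a mixture of 1 µM sodium arsenite with 30 µg/L uranyl nitrate, arsenite alone at 10 or at 1 µM, uranyl nitrate alone at 300 or at 30 µg/L, and vehicle. Sodium arsenite is a trivalent inorganic arsenic salt and uranyl nitrate a soluble uranium salt. Each group had 4 libraries (n = 4 throughout). A library pooled the RNA of 10 larvae, and differences between single animals were therefore not seen. Levels are FPKM, the reads of a gene scaled to its length and to the size of the library, which allows levels of different genes to be set side by side.

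Library sizes recovered from the FPKM values ran from 15456878 to 22987115 reads. Markers of whole larvae were present throughout, including the muscle actin actc1b at 13550 to 16494 FPKM, the liver fatty acid binding protein fabp10a at 408 to 807 FPKM and the neuronal gene elavl3 at 84.4 to 104 FPKM, beside the cartilage collagen col2a1a at 96.6 to 157 FPKM. In whole larvae, fewer cartilage or bone cells and less RNA per cell cannot be told apart.

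The highest members were sparc, the collagen-binding protein osteonectin, with a mean of 478 FPKM over the 24 libraries, and matn1, the cartilage protein matrilin 1, with 128 FPKM. These were the only members above 100 FPKM. Another 28 lay between 1 and 100 FPKM and 4 lay below 1 FPKM. Read numbers were small for 5 members, which had fewer than 10 reads in at least 1 library: runx2a, ihhb, snorc, bglap and mgp. The bone matrix protein gene bglap, which codes for osteocalcin, had 0 to 7 reads per library, so that its values rest on few reads. The other 29 members had at least 10 reads in every library. Within a group, a typical member varied little between pools, with a median coefficient of variation of 12.1%. The highest group mean of a member was 1.26 times the lowest in the median.

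**Figure D1:**
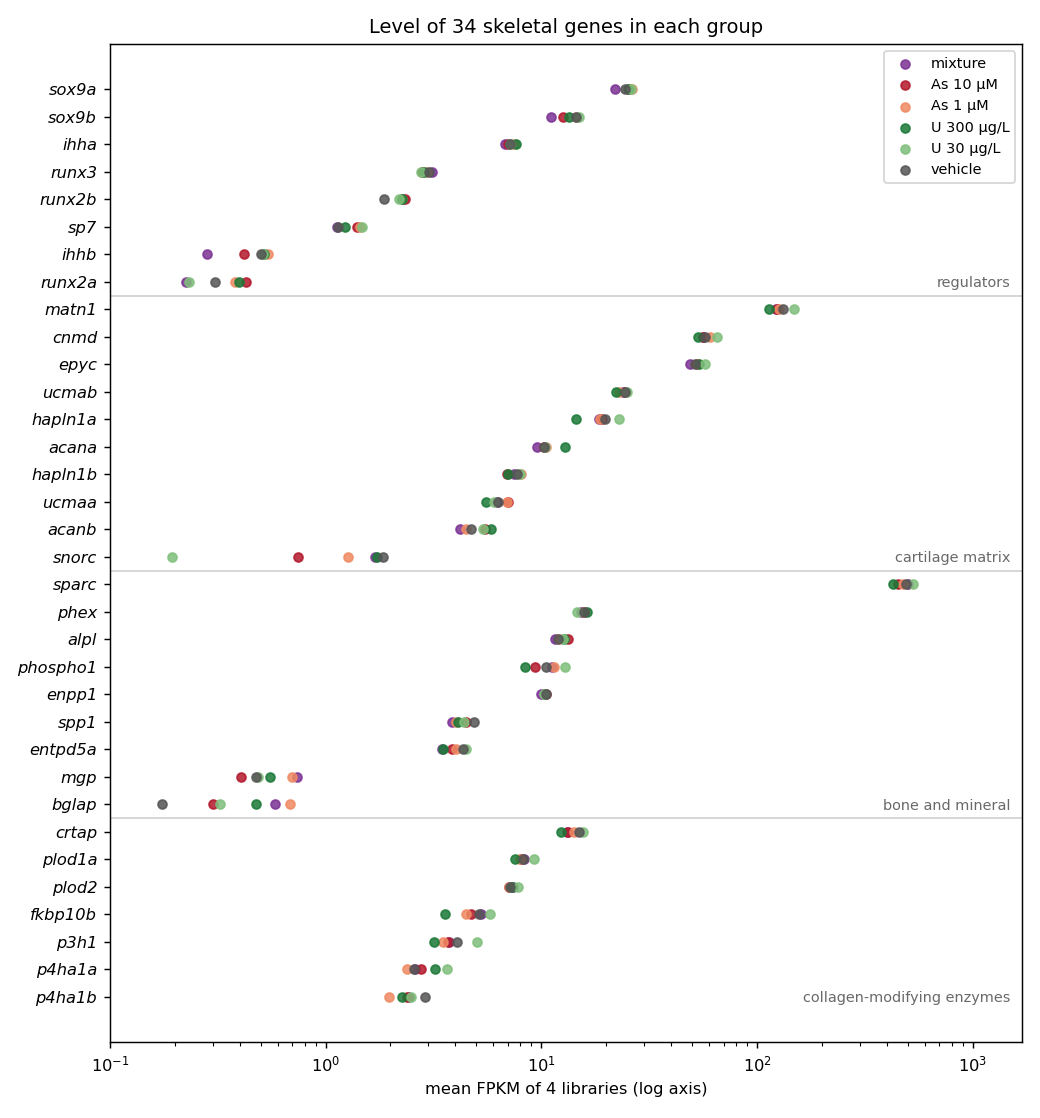
Mean FPKM of each of the 34 skeletal genes in each group of 4 libraries, on a log axis, ordered by role and level. As is sodium arsenite and U is uranyl nitrate. The group means of most genes lie close together, sparc and matn1 are the only genes above 100 FPKM, and hapln1a, fkbp10b and p3h1 are lowest at 300 µg/L uranyl nitrate.

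Of the genes present as 2 copies from the teleost genome duplication, 1 copy dominated in most pairs. The level of sox9a was 1.85 times that of sox9b, acana 2.13 times acanb, hapln1a 2.51 times hapln1b, ucmab 3.76 times ucmaa, runx2b 6.69 times runx2a and ihha 15.6 times ihhb. In each of these 6 pairs the same copy was higher in 24 of 24 libraries. The pair p4ha1a and p4ha1b had near equal levels, with a ratio of 1.19 and p4ha1a higher in 16 of 24 libraries. How reads shared between close copies were assigned is not given in the sources used here, so the split within a pair carries that uncertainty.

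Differences were tested with limma on log2(FPKM + 1) over 22682 genes, with p-values adjusted over all of them, and an adjusted p under 0.05 made a call. Calls among the members were found in 2 uranyl nitrate comparisons. At 300 against 30 µg/L, 6 of the 33 tested members (18.2%) were called, where 6.65% of all genes tested were. Of these, 5 were lower at 300 µg/L (15.2% of members, against 4.03% of all genes), namely hapln1a, fkbp10b, p3h1, matn1 and sparc, and acana was higher. The count depended on single libraries. It was 3 without 300 µg/L replicate 4 (2.29% of all genes called), and 3, 1 and 2 without 30 µg/L replicates 2, 3 and 4 (4.28%, 2.05% and 3.15% of all genes). At 300 µg/L against vehicle, 1 member (acana, higher) was called (3.03%), where 1.77% of all genes were. No member was called at 30 µg/L against vehicle, where 0% of all genes passed. At an unadjusted p under 0.05, 11 members (33.3%) passed at 300 against 30 µg/L, where 20.9% of all genes did, 7 members (21.2%) at 300 µg/L against vehicle, where 16.6% did, and 1 member at 30 µg/L against vehicle, where 7.14% did.

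None of the 33 members was called by limma in the other 7 comparisons, nor by limma's voom on the recovered reads. At an unadjusted p under 0.05, 2 members passed in 1 µM arsenite against vehicle (6.74% of all genes did), 3 in 10 µM arsenite against vehicle (10.3%), 3 in the mixture against vehicle (10.7%) and 2 in 10 against 1 µM arsenite (6.11%). The same count was 11 in the mixture against 30 µg/L uranyl nitrate (11.2% of all genes), 3 in the mixture against 1 µM arsenite (7.93%) and 4 (7.33%) in the departure from additivity, which compares the log2 change of the mixture with the sum of those of its components. The share of all genes called in these 7 comparisons was small too. It was 0.132% for 1 µM arsenite against vehicle, 0.727% for 10 µM arsenite against vehicle, 0.406% for the mixture against vehicle and 0.176% for 10 against 1 µM arsenite. It was 0.238% for the mixture against 30 µg/L uranyl nitrate, 0.00441% for the mixture against 1 µM arsenite and 0.0353% for the departure from additivity. With calls this rare among all genes, a count of 0 of 33 is near the background. The 2 members in 1 µM arsenite against vehicle were sp7, at a log2 fold change of 0.19 (adjusted p = 0.722), and bglap, at 0.48 (adjusted p = 0.668).

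**Figure D2:**
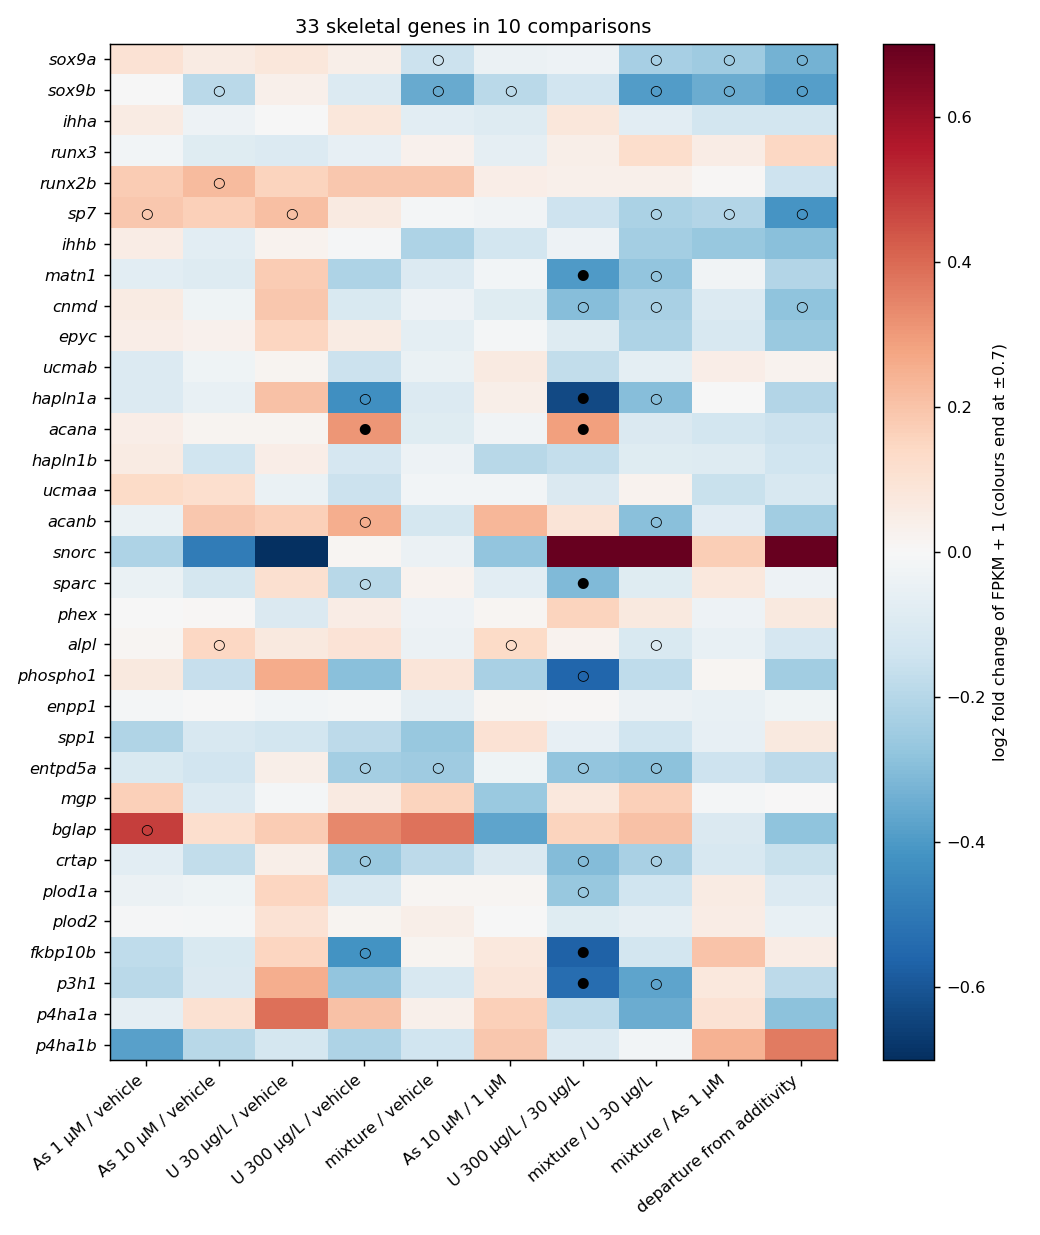
Log2 fold change of FPKM + 1 for the 33 tested skeletal genes (down the page, by role) in the 10 comparisons (across), each named as first group / second group. Filled circles mark an adjusted p under 0.05 and open circles an unadjusted p under 0.05; snorc, at up to 1.09, runs past the colour scale. Filled circles stand only in the columns for 300 µg/L uranyl nitrate, and sox9a and sox9b, but not sp7, have open circles in the mixture against vehicle.

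None of the 7 tested regulators was called in any comparison, and the lowest values of the sox9 copies were seen in the mixture. The 2 sox9 copies code for the transcription factors that set up cartilage. In the mixture, sox9b had 9.95, 10.6, 11.8 and 12.3 FPKM. It had 14.1, 13.8, 16.1 and 13.8 FPKM in 1 µM arsenite and 14.2, 13.5, 17.1 and 14.7 FPKM in 30 µg/L uranyl nitrate. In vehicle it had 13.4, 15.9, 12.6 and 16.1 FPKM. All 4 mixture libraries lay below all libraries of both components and of vehicle, although the highest mixture library was close to the lowest vehicle library. The log2 fold change of sox9b was −0.35 (SE 0.0871, adjusted p = 0.0976) in the mixture against vehicle. Against 30 µg/L uranyl nitrate it was −0.39 (adjusted p = 0.0649) and against 1 µM arsenite −0.35 (adjusted p = 0.32). These 3 comparisons share the mixture libraries and none passed the threshold. At 10 µM arsenite, sox9b had 13.8, 12.9, 10.7 and 13.0 FPKM, which overlapped both the mixture and vehicle, at −0.19 against vehicle (adjusted p = 0.458). Without vehicle replicate 3, sox9b was called in the mixture against vehicle, at −0.41 with an adjusted p of 0.0359. That library held the lowest vehicle value, 12.6 FPKM, so that leaving it out widens the difference. No other refit called sox9b there.

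The more abundant copy, sox9a, had 20.1, 25.1, 20.6 and 22.3 FPKM in the mixture, against 24.4, 25.9, 22.7 and 24.9 FPKM in vehicle. It had 25.8, 27.6, 26.7 and 25.1 FPKM in 1 µM arsenite and 27.1, 26.7, 23.8 and 26.2 FPKM in 30 µg/L uranyl nitrate. The mixture libraries overlapped those of vehicle and of each component, and the log2 fold change was −0.15 against vehicle (adjusted p = 0.44). The departure from additivity was −0.33 for sox9a (SE 0.0972, adjusted p = 0.366) and −0.39 for sox9b (SE 0.123, adjusted p = 0.415). For sp7, the osteoblast transcription factor osterix, it was −0.41 (SE 0.123, adjusted p = 0.369). None of these 3 passed the threshold. The 4 members that reached an unadjusted p under 0.05 in the departure, all lower than additive, were these 3 regulators and cnmd.

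Osterix (sp7) averaged 1.12 ± 0.234 FPKM in the mixture and 1.14 ± 0.144 FPKM in vehicle (SD, n = 4 each). It averaged 1.40 ± 0.0819 FPKM at 10 µM and 1.44 ± 0.240 FPKM at 1 µM arsenite, and 1.24 ± 0.180 FPKM at 300 µg/L and 1.47 ± 0.145 FPKM at 30 µg/L uranyl nitrate. The mixture and vehicle were thus near each other, with the single exposures at or above them. At 30 µg/L uranyl nitrate all 4 sp7 libraries lay above all 4 vehicle libraries, at a log2 fold change of 0.21 (adjusted p = 0.633).

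Among the other osteoblast regulators, runx2b averaged 2.34 ± 0.177 FPKM at 10 µM arsenite and 1.87 ± 0.277 FPKM in vehicle. Its 4 libraries at 10 µM lay above all 4 vehicle libraries, and the log2 fold change of 0.22 did not pass (adjusted p = 0.369). Its copy runx2a, with 4 to 20 reads per library, averaged 0.226 to 0.429 FPKM over the groups. When tested without a filter it had adjusted p-values from 0.345 to 1.0. The related runx3, which takes part in zebrafish craniofacial cartilage formation, stayed between group means of 2.77 and 3.11 FPKM. Neither of the 2 Indian hedgehog ligands, which pace cartilage maturation, was called. Group means of ihha ran from 6.82 FPKM in the mixture to 7.65 FPKM at 300 µg/L uranyl nitrate. The minor copy ihhb averaged 0.281 to 0.541 FPKM and had 2 to 32 reads per library.

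The cartilage matrix genes held 3 of the 6 calls between the uranyl nitrate doses, and they went in both directions. Of the 10 cartilage matrix members, 3 (30%) were thus called, where 6.65% of all genes tested were. The link protein gene hapln1a and matn1 were lower at 300 than at 30 µg/L, while the aggrecan gene acana was higher. The median log2 fold change of the 10 cartilage matrix members was −0.13 at 300 against 30 µg/L, beside −0.10 for all 33 members and −0.00 for all genes tested.

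Link protein 1, encoded by hapln1a, ties aggrecan to hyaluronan. Its gene had 13.9, 13.7, 17.3 and 12.9 FPKM at 300 µg/L, against 20.4, 23.7, 24.6 and 22.8 FPKM at 30 µg/L. Vehicle libraries had 20.8, 17.2, 18.1 and 23.3 FPKM. All 4 libraries at 300 µg/L lay below all 4 at 30 µg/L, and 3 of them lay below every vehicle library. At 300 against 30 µg/L the log2 fold change was −0.63 (SE 0.131, adjusted p = 0.00939), and hapln1a was called in each of the 8 refits that left out 1 library of either dose. Against vehicle it was −0.43 at 300 µg/L (adjusted p = 0.091) and 0.21 at 30 µg/L (adjusted p = 0.783), neither past the threshold. The mixture had 15.4, 18.7, 20.8 and 19.0 FPKM, 10 µM arsenite had 23.0, 17.3, 18.9 and 17.1 FPKM, and 1 µM arsenite had 19.9, 19.0, 22.4 and 13.5 FPKM. These 3 groups overlapped vehicle. The second copy, hapln1b, averaged 7.0 ± 0.927 FPKM at 300 µg/L and 7.99 ± 1.25 FPKM at 30 µg/L, a log2 fold change of −0.16 that did not pass. Whether the copies differed in response was not tested.

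Matrilin 1 is an abundant adaptor protein of the cartilage matrix. Its gene matn1 had 118, 102, 126 and 107 FPKM at 300 µg/L, against 139, 153, 149.7 and 153 FPKM at 30 µg/L. Vehicle libraries had 130.2, 122, 128 and 145 FPKM, a range that overlapped both doses. The doses did not overlap, and the log2 fold change of matn1 at 300 against 30 µg/L was −0.39 (SE 0.112, adjusted p = 0.038). Against vehicle it was −0.21 at 300 µg/L (adjusted p = 0.351) and 0.18 at 30 µg/L (adjusted p = 0.778). The mixture had 116, 115, 137 and 124 FPKM, 10 µM arsenite 137, 102, 120.1 and 136 FPKM, and 1 µM arsenite 141, 125, 147 and 93.2 FPKM. The matn1 call was lost on leaving out any single library among 300 µg/L replicates 1, 2 and 4 and 30 µg/L replicates 2, 3 and 4. Adjusted p-values there were up to 0.11, and the log2 fold change stayed between −0.45 and −0.35 over all alternatives.

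Aggrecan is the main proteoglycan of cartilage. Its gene acana had 13.1, 13.7, 12.8 and 11.9 FPKM at 300 µg/L, against 10.3, 10.2, 10.1 and 10.9 FPKM at 30 µg/L and 10.1, 11.8, 8.48 and 10.6 FPKM in vehicle. The mixture had 9.57, 9.30, 9.32 and 10.1 FPKM, 10 µM arsenite 9.39, 10.7, 10.7 and 10.6 FPKM, and 1 µM arsenite 9.87, 10.8, 10.5 and 11.1 FPKM. All 4 libraries at 300 µg/L lay above the other 20 libraries. The log2 fold change of acana was 0.29 at 300 against 30 µg/L (SE 0.0689, adjusted p = 0.018) and 0.31 at 300 µg/L against vehicle (SE 0.0689, adjusted p = 0.0269). Both comparisons share the libraries at 300 µg/L. Against vehicle, the call was lost without 300 µg/L replicate 1 or 2 or without vehicle replicate 1, 3 or 4, with adjusted p-values up to 0.0808. Against 30 µg/L, it was lost without 300 µg/L replicate 2 or 30 µg/L replicate 3, with adjusted p-values up to 0.0598. The copy acanb averaged 5.82 ± 1.1 FPKM at 300 µg/L and 4.70 ± 0.751 FPKM in vehicle, a log2 fold change of 0.25 that did not pass (adjusted p = 0.276).

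The level of acana relative to hapln1a, a ratio chosen after the values were seen, was 0.739 to 1.00 in the libraries at 300 µg/L. It was 0.408 to 0.503 at 30 µg/L and 0.453 to 0.690 in vehicle. Outside these 3 groups its highest value was 0.824, in a library of 1 µM arsenite.

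**Figure D3:**
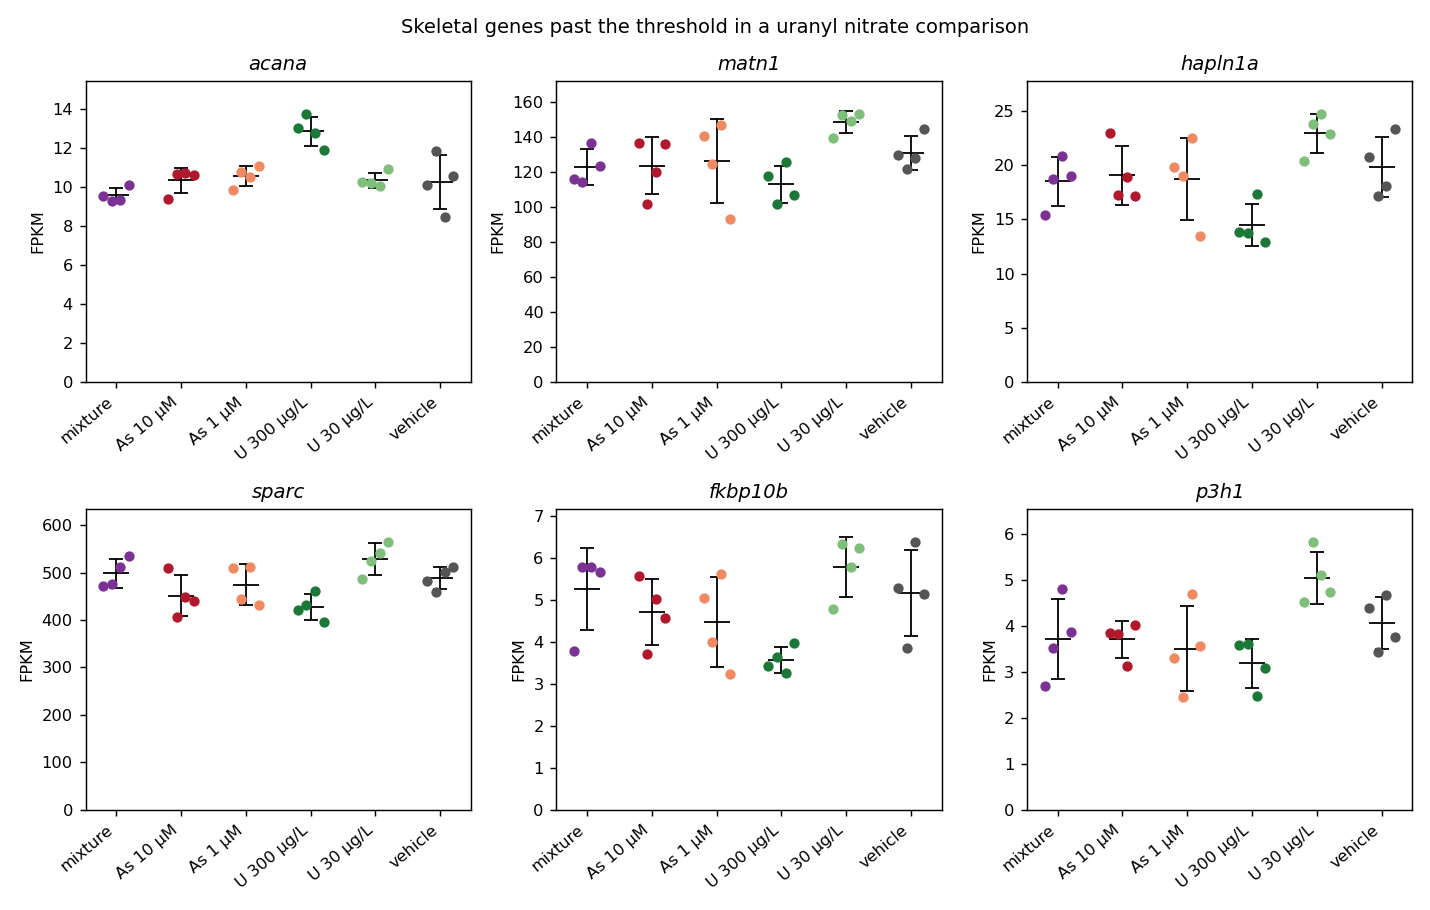
FPKM of the 6 called skeletal genes in every library, by group; points are libraries (pools of 10 larvae), and bars give the mean and SD of 4 libraries. As is sodium arsenite and U is uranyl nitrate. The 4 libraries at 300 µg/L lie above all others for acana, and below all 4 libraries at 30 µg/L for matn1, hapln1a, sparc, fkbp10b and p3h1.

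Chondromodulin, the product of cnmd, keeps blood vessels out of cartilage. Its gene averaged 53.2 ± 3.93 FPKM at 300 µg/L, 65.5 ± 1.75 FPKM at 30 µg/L and 57.3 ± 3.52 FPKM in vehicle. Libraries of the 2 doses did not overlap, and the log2 fold change of −0.30 fell short of the threshold (adjusted p = 0.0629). At 30 µg/L all 4 cnmd libraries lay above all 4 vehicle libraries, at 0.19 (adjusted p = 0.714). The small leucine-rich proteoglycan gene epyc averaged 53.6 ± 5.11 FPKM at 300 µg/L and 57.4 ± 7.94 FPKM at 30 µg/L. Group means of ucmab and ucmaa, which code for a cartilage protein with modified glutamate residues, ran from 22.2 to 25.0 FPKM and from 5.54 to 7.0 FPKM, and neither was called.

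The proteoglycan gene snorc, named for cartilage expression in mouse, was either low or high in single libraries in a way the groups did not follow. In 9 libraries it had 2.17 to 4.08 FPKM, from 37 to 86 reads, and in the other 15 it had 0.0523 to 0.504 FPKM, from 1 to 12 reads. High libraries numbered 2 of 4 in the mixture, 1 in 10 µM arsenite, 2 in 1 µM arsenite, 2 in 300 µg/L and 0 in 30 µg/L uranyl nitrate, and 2 in vehicle. Fold changes of snorc therefore rested on single libraries, and none was called. At 300 against 30 µg/L the log2 fold change was 0.93 (SE 0.607, adjusted p = 0.414).

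**Figure D4:**
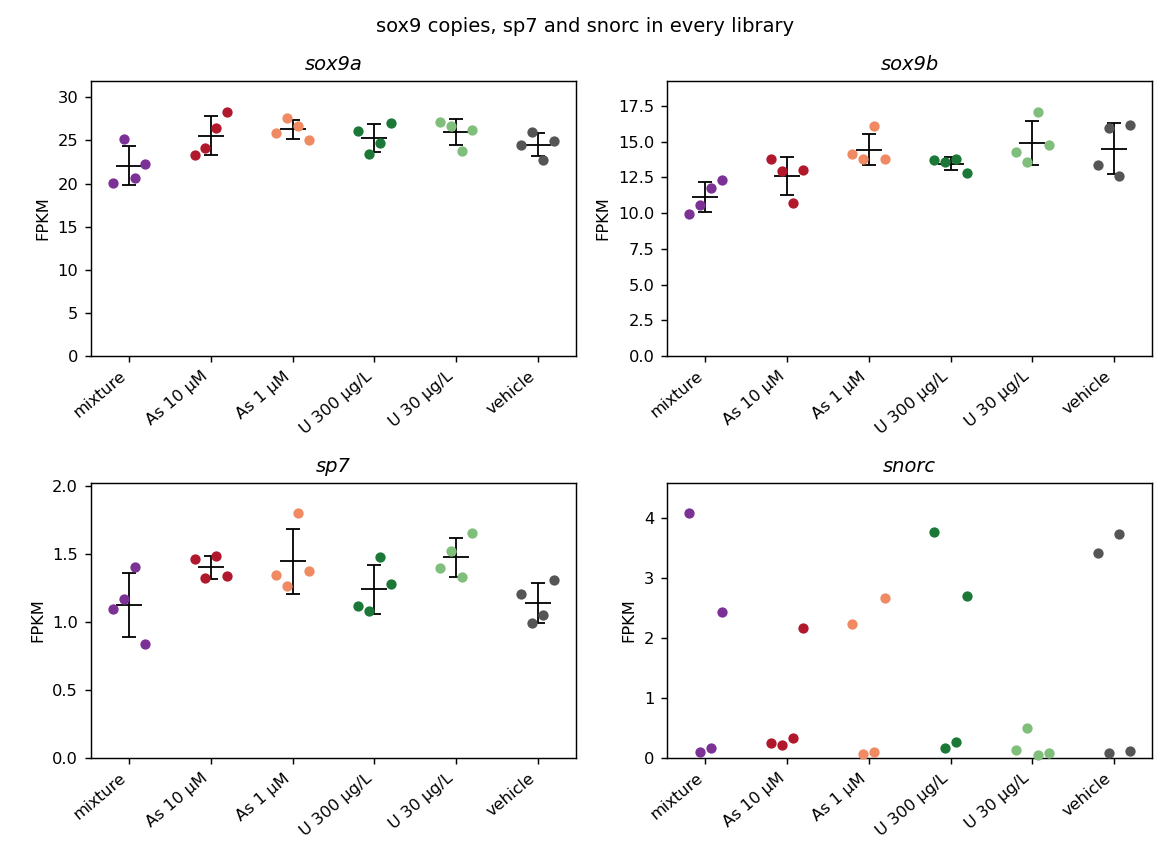
FPKM of sox9a, sox9b, sp7 and snorc in every library, by group; points are libraries, and bars, left out for snorc, give the mean and SD of 4 libraries. As is sodium arsenite and U is uranyl nitrate. The 4 mixture libraries of sox9b, at 9.95 to 12.3 FPKM, lie below all 4 vehicle libraries, while snorc is split into libraries above 2 FPKM and libraries near 0 within most groups.

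In the bone and mineral class, 1 of 9 tested members (11.1%) was called, at 300 against 30 µg/L, where 6.65% of all genes tested were. Osteonectin, encoded by sparc, binds collagen and mineral and is made by osteoblasts and many connective tissue cells. Its gene had 420.3, 431, 461 and 396 FPKM at 300 µg/L, against 486, 525, 540.1 and 564 FPKM at 30 µg/L. Vehicle libraries had 483, 459.8, 501 and 513 FPKM. The doses did not overlap, and at 300 µg/L 3 of 4 libraries lay below every vehicle library, with the highest, 461 FPKM, just above the lowest vehicle library. The log2 fold change of sparc at 300 against 30 µg/L was −0.31 (SE 0.0704, adjusted p = 0.0145). Against vehicle it was −0.20 at 300 µg/L (adjusted p = 0.146) and 0.11 at 30 µg/L (adjusted p = 0.783). The mixture had 472, 476, 512 and 535 FPKM, 10 µM arsenite 509, 405, 449 and 439.7 FPKM, and 1 µM arsenite 510.0, 444, 512 and 432 FPKM. Without 300 µg/L replicate 4, or without 30 µg/L replicate 3 or 4, the call was lost, with adjusted p-values up to 0.0567.

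The phosphatase encoded by phospho1 releases phosphate inside matrix vesicles. Its gene averaged 8.38 ± 0.876 FPKM at 300 µg/L, 12.9 ± 2.63 FPKM at 30 µg/L and 10.5 ± 0.955 FPKM in vehicle. Its libraries at 300 µg/L lay below all libraries at 30 µg/L and all vehicle libraries. The log2 fold change of −0.55 against 30 µg/L (SE 0.169, adjusted p = 0.0523) did not pass. It was called with a minimum of 2 FPKM (adjusted p = 0.0426) and with only the groups compared (adjusted p = 0.0422). Against vehicle it was −0.29 (adjusted p = 0.407).

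Zebrafish need entpd5a, a nucleotide-hydrolysing enzyme, to mineralize bone. It averaged 3.52 ± 0.397 FPKM at 300 µg/L, 4.47 ± 0.297 FPKM at 30 µg/L and 4.32 ± 0.146 FPKM in vehicle. Libraries at 300 µg/L lay below all libraries at 30 µg/L (log2 fold change −0.28, adjusted p = 0.0718) and all in vehicle (−0.24, adjusted p = 0.181). The mixture averaged 3.48 ± 0.160 FPKM and also lay below all vehicle libraries (−0.25, adjusted p = 0.309). None of the 3 was called.

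Alkaline phosphatase, encoded by alpl, removes the mineral inhibitor pyrophosphate. Its gene varied least between pools, with a mean within-group coefficient of variation of 4.04%. It averaged 13.3 ± 0.575 FPKM at 10 µM arsenite and 11.9 ± 0.298 FPKM in vehicle. Libraries at 10 µM lay above all vehicle libraries, at a log2 fold change of 0.14 (adjusted p = 0.213). At 300 µg/L uranyl nitrate alpl averaged 12.8 ± 0.312 FPKM. Its libraries there also lay above all vehicle libraries, without a call. None of the remaining bone and mineral members was called. Group means ran from 9.97 to 10.5 FPKM for enpp1, which makes pyrophosphate, from 14.7 to 16.4 FPKM for phex, which restrains phosphate loss in mammals, and from 3.86 to 4.86 FPKM for spp1, which codes for osteopontin. The low genes mgp and bglap averaged 0.406 to 0.734 FPKM and 0.175 to 0.682 FPKM. At 300 µg/L uranyl nitrate bglap had 0.325 to 0.613 FPKM, from 2 to 4 reads. All 4 of these libraries lay above vehicle, at 0 to 0.303 FPKM from 0 to 2 reads, without a call.

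All 7 collagen-modifying members had a lower mean log2 level at 300 than at 30 µg/L uranyl nitrate, with a median of −0.27. Of them, 2 (28.6%) were called, both lower, where 4.03% of all genes tested were called lower. Among all genes tested, 50.4% were lower in that comparison, without regard to a test. Against vehicle, 5 of the 7 were lower at 300 µg/L (51.4% of all genes tested were) and 1 of the 7 was lower at 30 µg/L (49.4%), with no call in either.

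The chaperone and proline isomerase FKBP65, encoded by fkbp10b, acts on collagen in the endoplasmic reticulum. Its gene had 3.43, 3.64, 3.26 and 3.97 FPKM at 300 µg/L, against 4.79, 6.33, 5.78 and 6.25 FPKM at 30 µg/L. Vehicle libraries had 5.29, 3.86, 6.38 and 5.15 FPKM. The doses did not overlap, while the lowest vehicle library fell inside the range at 300 µg/L. The log2 fold change of fkbp10b at 300 against 30 µg/L was −0.57 (SE 0.145, adjusted p = 0.024). Against vehicle it was −0.42 at 300 µg/L (adjusted p = 0.134) and 0.15 at 30 µg/L (adjusted p = 0.883). The mixture had 3.79, 5.79, 5.79 and 5.66 FPKM, 10 µM arsenite 5.57, 3.72, 5.02 and 4.57 FPKM, and 1 µM arsenite 5.05, 4.01, 5.63 and 3.23 FPKM. The fkbp10b call was lost, with adjusted p-values up to 0.0684, without any one of 300 µg/L replicates 1, 2 or 3 or 30 µg/L replicates 2, 3 or 4.

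Prolyl 3-hydroxylase 1 (p3h1) and its partner, the cartilage-associated protein (crtap), form a complex with cyclophilin B (ppib) that modifies single prolines of collagen and helps it fold. In p3h1, libraries had 3.60, 3.60, 2.48 and 3.08 FPKM at 300 µg/L, against 4.52, 5.83, 5.10 and 4.74 FPKM at 30 µg/L. Vehicle libraries had 4.38, 3.44, 4.68 and 3.76 FPKM. The doses did not overlap, and vehicle lay between them and overlapped both. At 300 against 30 µg/L the log2 fold change of p3h1 was −0.53 (SE 0.14, adjusted p = 0.027). Against vehicle it was −0.28 at 300 µg/L (adjusted p = 0.33) and 0.26 at 30 µg/L (adjusted p = 0.738). The mixture had 2.69, 3.52, 4.81 and 3.87 FPKM, 10 µM arsenite 3.85, 3.84, 3.13 and 4.03 FPKM, and 1 µM arsenite 3.30, 2.46, 4.71 and 3.56 FPKM. Leaving out 300 µg/L replicate 3 or 4, or 30 µg/L replicate 2, 3 or 4, ended the p3h1 call, with adjusted p-values up to 0.0777.

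The partner crtap averaged 12.4 ± 1.04 FPKM at 300 µg/L, 15.6 ± 2.51 FPKM at 30 µg/L and 15.0 ± 0.811 FPKM in vehicle, a log2 fold change of −0.30 between the doses that did not pass (adjusted p = 0.0752). Against vehicle, crtap libraries at 300 µg/L lay below all 4 vehicle libraries (−0.26, adjusted p = 0.185). The third partner, ppib, is no member and was named after its values were seen. It averaged 177 ± 4.35 FPKM at 300 µg/L and 202 ± 4.80 FPKM at 30 µg/L, and was called lower (−0.18, adjusted p = 0.0459).

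The lysyl hydroxylase genes prepare collagen for cross-linking. Of them, plod1a averaged 7.58 ± 1.16 FPKM at 300 µg/L and 9.26 ± 0.820 FPKM at 30 µg/L (log2 fold change −0.27, adjusted p = 0.0659), and plod2 averaged 7.30 ± 0.785 FPKM at 300 µg/L and 7.77 ± 0.575 FPKM at 30 µg/L. Neither was called. The prolyl 4-hydroxylase subunit genes p4ha1a and p4ha1b, whose enzyme stabilizes the collagen helix, varied most between pools in this class, with mean within-group coefficients of variation of 24.4% and 27.1%, and neither was called in any comparison.

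**Figure D5:**
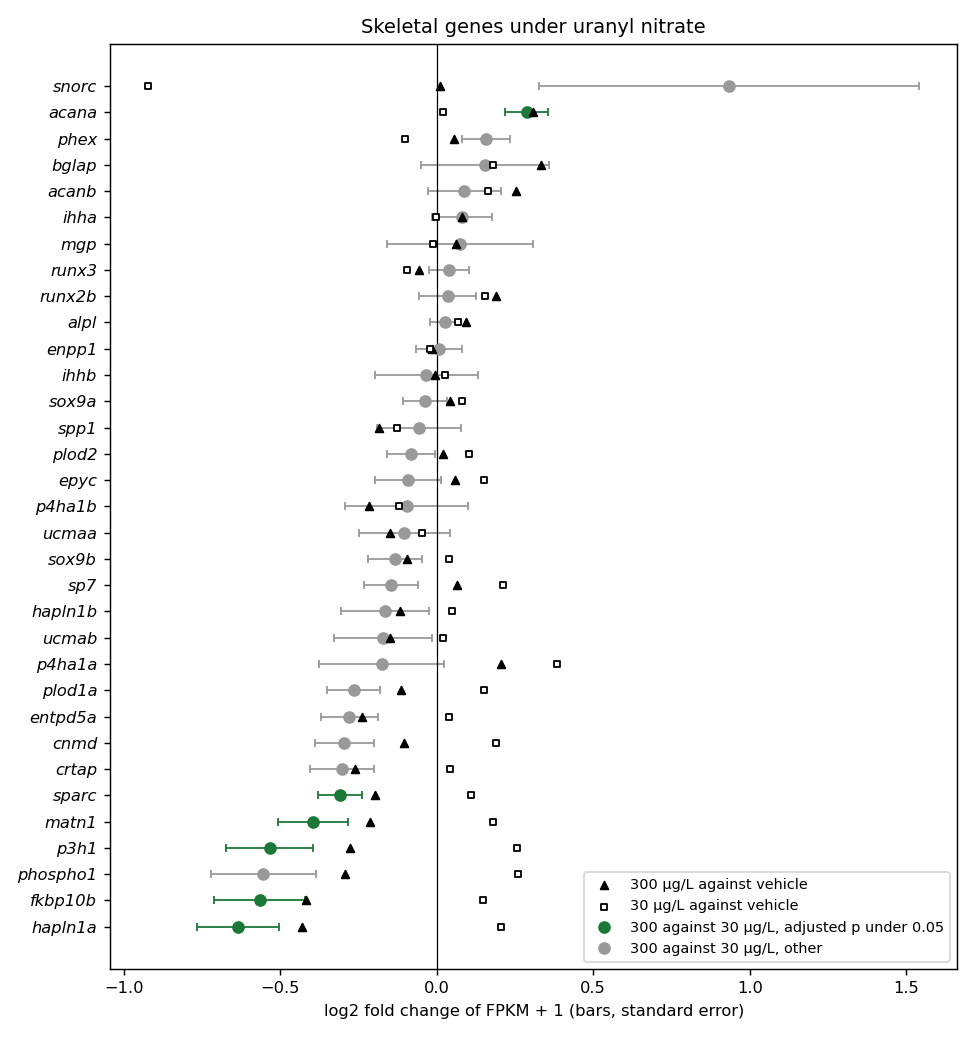
Log2 fold change of FPKM + 1 for the 33 tested skeletal genes at 300 against 30 µg/L uranyl nitrate (circles, with standard error; green where the adjusted p was under 0.05), beside 300 µg/L against vehicle (triangles) and 30 µg/L against vehicle (squares). The 3 comparisons share libraries. For each of the 5 genes called lower, hapln1a, fkbp10b, p3h1, matn1 and sparc, the triangle lies left of 0 and the square right of 0. Picking these genes by the difference between the doses favours such a placement.

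Each of the 5 genes called lower was below vehicle at 300 µg/L and above it at 30 µg/L, with neither difference from vehicle past the threshold. Over all members, 24 of 33 were above vehicle at 30 µg/L, where 11456 of 22682 genes tested were, without regard to a test. At 300 µg/L, 19 of 33 (57.6%) were below vehicle, near the 51.4% of all genes tested. The medians were 0.07 at 30 µg/L and −0.06 at 300 µg/L, beside 0.00 and −0.00 for all genes tested. In the mixture against 30 µg/L uranyl nitrate, which uses the same 30 µg/L libraries, 11 members (33.3%) were lower at an unadjusted p under 0.05, where 6.58% of all genes were. They were sox9a, sox9b, sp7, matn1, cnmd, hapln1a, acanb, alpl, entpd5a, crtap and p3h1, and none of them was called. The members' median in that comparison was −0.13, beside −0.02 for all genes tested.

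Libraries of the 2 groups did not overlap for 9 members at 300 against 30 µg/L, where 14.7% of all genes tested did not. The same count was 6 members at 300 µg/L against vehicle (9.75% of all genes), 5 in the mixture against 30 µg/L (6.09%), 3 in 10 µM arsenite against vehicle (6.13%), 2 in the mixture against vehicle (4.92%) and 2 at 30 µg/L against vehicle (4.34%). It was 2 in 10 against 1 µM arsenite (4% of all genes), 1 in the mixture against 1 µM arsenite (3.49%) and 0 in 1 µM arsenite against vehicle (3.66%).

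Genes of the same pathways outside the set were counted in wider lists. Of 51 other genes of collagen folding, secretion and cross-linking, 7 were called lower and 0 higher at 300 against 30 µg/L. The collagen chaperone gene serpinh1b averaged 22.4 ± 1.01 FPKM at 300 µg/L and 41.1 ± 6.66 FPKM at 30 µg/L (log2 fold change −0.84, adjusted p = 0.00147). Its copy serpinh1a averaged 12.0 ± 0.434 FPKM at 300 µg/L and 16.0 ± 1.03 FPKM at 30 µg/L (−0.38, adjusted p = 0.0103). The gene kdelr2a, which codes for a receptor that returns chaperones to the endoplasmic reticulum, averaged 31.9 ± 3.42 FPKM at 300 µg/L and 40.6 ± 1.96 FPKM at 30 µg/L (−0.34, adjusted p = 0.011). These 3 (5.88% of the list, all lower) were also the ones called at 300 µg/L against vehicle, where 0.895% of all genes tested were called lower. Calls of serpinh1b were not limited to uranyl nitrate. It averaged 16.4 ± 1.83 FPKM in the mixture and 17.9 ± 2.98 FPKM at 10 µM arsenite, against 44.6 ± 2.34 FPKM in vehicle. Its log2 fold changes against vehicle were −1.39 in the mixture (adjusted p = 8.87e-07) and −1.29 at 10 µM arsenite (adjusted p = 1.67e-06), and it was also called lower at 1 µM arsenite (adjusted p = 0.000312). In the mixture against 30 µg/L uranyl nitrate the log2 fold change was −1.27 (adjusted p = 1.4e-05).

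Of 47 other cartilage matrix and proteoglycan genes, 6 were called lower and 0 higher at 300 against 30 µg/L. The decorin gene dcn averaged 51.8 ± 2.22 FPKM at 300 µg/L and 64.5 ± 2.43 FPKM at 30 µg/L (log2 fold change −0.31, adjusted p = 0.00818). The sulphate donor synthase gene papss1 averaged 4.42 ± 0.744 FPKM at 300 µg/L and 6.46 ± 0.296 FPKM at 30 µg/L (−0.47, adjusted p = 0.0191). The list and its count of 6 also hold otomp, which codes for the otolith matrix protein of the inner ear and is no cartilage gene by name. For otomp the means were 44.7 ± 2.12 FPKM at 300 µg/L and 55.3 ± 4.26 FPKM at 30 µg/L (−0.30, adjusted p = 0.0283). At 10 µM arsenite, the versican gene vcanb was lower, at 12.5 ± 0.442 FPKM against 17.96 ± 2.15 FPKM in vehicle (−0.49, adjusted p = 0.0433). The gene of UDP-glucose dehydrogenase, ugdh, which makes a building block of proteoglycan chains, averaged 6.14 ± 1.61 FPKM at 10 µM and 1.94 ± 1.05 FPKM at 1 µM arsenite (1.34, adjusted p = 0.0108). Vehicle lay between them: the log2 fold change of ugdh against vehicle was 0.74 at 10 µM and −0.60 at 1 µM, and neither was called.

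Of 40 other mineral, osteoblast and osteoclast genes, 2 were called lower and 2 higher at 300 against 30 µg/L. The osteoblast membrane gene ifitm5 averaged 8.15 ± 1.69 FPKM at 300 µg/L and 11.9 ± 1.15 FPKM at 30 µg/L (−0.51, adjusted p = 0.0138). The periostin gene postnb averaged 123 ± 9.33 FPKM at 300 µg/L and 168 ± 13.3 FPKM at 30 µg/L (−0.44, adjusted p = 0.0124). The vitamin D hydroxylase gene cyp24a1 was higher, at 59.0 ± 13.3 FPKM at 300 µg/L and 24.4 ± 6.39 FPKM at 30 µg/L (1.25, adjusted p = 0.0217). In the mixture, the phosphate transporter gene slc20a1b was higher, at 61.6 ± 5.62 FPKM against 43.6 ± 1.82 FPKM in vehicle (0.49, adjusted p = 0.00344). Of 51 other skeletal regulators and signalling genes, 0 were called by limma in any comparison, and 1 (1.96%) reached an unadjusted p under 0.05 at 300 against 30 µg/L, where 20.9% of all genes did. At 10 µM arsenite against vehicle, 19.6% of these regulators reached it, 2 of them higher and 8 lower, where 10.3% of all genes did. The all-gene shares for the called counts of these lists at 300 against 30 µg/L were 4.03% lower and 2.63% higher.

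Markers of skeletal and connective tissue cells were mostly lower in the same comparison, where 50.4% of all genes tested were lower and 4.03% were called lower. This was not limited to them. The 3 liver and 2 lens markers were all lower too, while the 3 tested macrophage markers and 4 of 5 muscle markers were higher, without regard to a test. The chondrocyte and osteoblast lists hold collagen chains, and the tendon and fibroblast list and the fin fold list hold other genes. All 5 chondrocyte collagens were lower at 300 than at 30 µg/L and 3 were called, namely col9a3, col11a2 and col9a1a. Their summed level was 371 to 439 FPKM at 300 µg/L, 486 to 515 FPKM at 30 µg/L and 404 to 445 FPKM in vehicle. The libraries at 30 µg/L thus stood above both other groups for the sum of these collagens. Taken singly, 3 of the 5 did not overlap between 30 µg/L and vehicle, where 4.34% of all genes tested did not, and none of the 5 was called there. Of 5 osteoblast markers, 2 were called lower (col10a1a and col1a2), with sums of 550.0 to 591 FPKM at 300 µg/L, 671 to 690.2 FPKM at 30 µg/L and 582 to 755 FPKM in vehicle. Without regard to a test, 4 of the 5 were lower and 1 was higher. The type I collagen genes col1a2 and col1a1a led these sums, with medians of 291 and 148 FPKM over all libraries, while col10a1b had 1.09 FPKM. Of 4 tendon and fibroblast markers, 2 were called lower (dcn and postnb, which the lists above also hold), with sums of 180.5 to 208 FPKM at 300 µg/L, 229 to 268 FPKM at 30 µg/L and 213 to 263 FPKM in vehicle. Of 3 fin fold markers, 1 (and1) was called lower, with sums of 506 to 584 FPKM at 300 µg/L, 581 to 674 FPKM at 30 µg/L and 557 to 661 FPKM in vehicle. At 300 µg/L against vehicle and1 was also called lower (−0.39, adjusted p = 0.0274), where 0.895% of all genes tested were. No other marker of these skeletal and connective tissue lists was called there. The gene postnb (median 147 FPKM) led the tendon and fibroblast sums and and2 (372 FPKM) the fin fold sums.

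Among markers of other tissues at 300 against 30 µg/L, none of 4 tested notochord markers and none of 5 muscle markers was called by limma. At an unadjusted p under 0.05, 1 notochord marker and 0 muscle markers passed, where 20.9% of all genes tested did. Of the 2 lens, 2 blood, 1 osteoclast and 3 neuron markers tested, none was called. Only 1 of these, a neuron marker that was higher, reached an unadjusted p under 0.05. The 2 lens markers were both lower, with a median log2 fold change of −0.58, where 50.4% of all genes tested were lower. All 3 liver markers were lower, with a median log2 fold change of −0.35. Of them, 1 (apoa2) was called lower, where 4.03% of all genes tested were. Summed muscle markers were 20977 to 22596 FPKM at 300 µg/L, 20567 to 21099 FPKM at 30 µg/L and 19637 to 22641 FPKM in vehicle. Summed liver markers were 2658 to 3595 FPKM at 300 µg/L, 3517 to 4580.0 FPKM at 30 µg/L and 3054 to 4624 FPKM in vehicle. Of 4 intestine markers none was called and 2 were lower at an unadjusted p under 0.05, with sums of 90.5 to 106 FPKM at 300 µg/L, 109.7 to 125 FPKM at 30 µg/L and 90.4 to 120.4 FPKM in vehicle. Intestine sums of the 2 doses thus did not overlap, but vil1, at a median of 98.0 FPKM over all libraries, made up most of them. The other intestine markers had medians of 4.84 to 6.17 FPKM. In the same way, actc1b (median 15046 FPKM) led the muscle sums and apoa2 (2769 FPKM) the liver sums. All 3 tested macrophage markers had log2 fold changes above 0, without regard to a test, with 1 of them at an unadjusted p under 0.05 and none called, and the list summed to 13.3 to 18.4 FPKM at 300 µg/L, 11.6 to 13.6 FPKM at 30 µg/L and 14.6 to 16.7 FPKM in vehicle. The gene csf1ra (median 8.87 FPKM over all libraries) led the macrophage sums, while mpeg1.1 had a median of 0.0232 FPKM. None of the markers named here was at 0 in all libraries of a group. The part of cell numbers and of these marker shifts in the lower skeletal genes was not tested. Chondrocyte collagens in the mixture summed to 406 to 490 FPKM, inside or above their vehicle range of 404 to 445 FPKM. In the departure from additivity all 5 were lower than additive, with a median of −0.33. Of these, 4 (80%) reached an unadjusted p under 0.05, where 7.33% of all genes did, and none was called. In the mixture against 30 µg/L uranyl nitrate all 5 were lower, without a call, and 3 did not overlap, where 6.09% of all genes did not. The sox9b libraries of the mixture lay below those of vehicle, without a call. How the levels of sox9b and of these collagens relate was not tested.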

How the data were processed

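Polyadenylated RNA of 24 pools of 10 larvae was sequenced. The authors deposited 1 table of FPKM values for 39974 genes; the submitters' processing notes name HISAT2 2.1.0, HTSeq 0.6.1, DESeq2 1.10.1 and the build GRCz11, and the annotation and strand setting are not given in the sources used here. Gene numbers were matched to symbols in RefSeq's gene table for GRCz12tu, which served for names only. Whole reads were recovered from the FPKM steps for 100.0% of values above 0 (within 0.01 of a whole number), giving 15456878 to 22987115 reads per library (median 18261488).

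Genes with FPKM of at least 0.5 in at least 4 of 24 libraries (22682) were tested on log2(FPKM + 1) with limma 3.58.1 in R 4.3.3: 1 fit of 6 groups without a block, 18 residual degrees of freedom, a variance trend, two-sided p-values, Benjamini-Hochberg adjustment over all genes within each of 10 comparisons. This scale understates the change of low genes. P-values weigh the difference between groups against the spread between pools, estimated over all 6 groups. Independence of the pools beyond separate pooling is not stated. Library sizes limit precision for genes with few reads only; read numbers cover counting error only.

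The members and all lists were chosen with earlier results of these data known. Called members are given in every library, other members by group means or ranges with their largest differences, and genes of other lists where called, at most the 3 with the smallest adjusted p. Alternatives were another pseudocount, no filter or a stricter one, 2 other scalings, a replicate block, voom on recovered reads, a fit of the compared groups alone and leaving out each library.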

Additional observations from a re-analysis of the deposited data

Results flagged for a closer look

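A library that stood far from the other 3 of its group was seen in 9 of 198 pairs of member and group (4.55%), where chance gives about 1 in 20. The minor hedgehog copy ihhb had 0.322 FPKM in replicate 4 of 1 µM arsenite, against 0.607 to 0.624 FPKM in the others. In 10 µM arsenite, acana had 9.39 FPKM in replicate 1 (others 10.6 to 10.7), snorc had 2.17 FPKM in replicate 4 (others 0.215 to 0.328), ucmaa had 4.52 FPKM in replicate 2 (others 7.69 to 7.90), and plod1a had 9.71 FPKM in replicate 1 (others 7.42 to 7.77). In the mixture, spp1 had 4.78 FPKM in replicate 3 (others 3.47 to 3.59), plod1a had 7.96 FPKM in replicate 1 (others 8.38 to 8.45), and fkbp10b had 3.79 FPKM in replicate 1 (others 5.66 to 5.79). In vehicle, crtap had 13.8 FPKM in replicate 1 (others 15.3 to 15.5).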

How the results depend on the processing

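At 300 against 30 µg/L uranyl nitrate, the count of 6 called members was 6 with log2(FPKM + 0.1), median-of-ratios scaling or voom on recovered reads, 5 with no filter or with the same FPKM total per library, 7 with a minimum of 2 FPKM, and 8 with only the groups compared. Leaving out 1 library gave 1 to 7: 3 without 300 µg/L replicate 4, and 3, 1 and 2 without 30 µg/L replicates 2, 3 and 4. At 300 µg/L against vehicle the count of 1 became 0 with only the groups compared (acana, adjusted p = 0.152) and was 0 to 1 over the libraries left out. In the mixture against vehicle it was 0 to 1, with sox9b called without vehicle replicate 3. The other 7 comparisons kept a count of 0 under each alternative run. Of 112 alternative values of called members, 82 kept the call, 30 lost it and 0 changed sign; besides leaving out libraries, matn1 lost it with no filter (adjusted p = 0.0565) and with the same FPKM total. Members called at 300 against 30 µg/L only under an alternative were phospho1 (a minimum of 2 FPKM, only the groups compared), cnmd (only the groups compared, without 300 µg/L replicate 3), entpd5a (replicate block, adjusted p = 0.0473), crtap (without 30 µg/L replicate 1) and plod1a (without 300 µg/L replicate 2). The cause of the lost calls was not tested. Fits without a library or with only the groups compared had fewer samples, and the fit with no filter had more genes. The fit with the same FPKM total per library differed in neither. With a replicate block, 7 members were called at 300 against 30 µg/L and 1 at 300 µg/L against vehicle. Over all genes tested, same-numbered libraries did not deviate together (r from −0.155 to 0.107 over 60 pairs, median 0.000194). A correlation over all genes can miss pairing that affects few genes, so whether the numbers pair libraries is not known. Over all genes at 300 µg/L against vehicle, the higher share of calls was 49.5%, and 69.2% with the same FPKM total; 402 genes were called, and 96 with only the groups compared. Depth limits ihhb, snorc, bglap, mgp and runx2a.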

Other observations

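Whether the replicate numbers in the labels pair libraries is not known. Counted over these numbers, the 9 libraries with snorc above 2 FPKM were 4 of 6 with number 1, 0 of 6 with number 2, 1 of 6 with number 3 and 4 of 6 with number 4. The pattern was seen after the values were known and was not tested.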
